A study of Mus musculus with 4 samples.

Results

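Ion channel and neurotransmitter receptor genes were examined in RNA-sequencing data of 46C mESCs, a mouse embryonic stem cell line with a GFP reporter in the neural gene *Sox1*. Genes were taken by symbol, as the protein-coding potassium, calcium and sodium channel genes and the glutamate, GABA, glycine, acetylcholine, serotonin, dopamine and adrenergic receptor genes that appear in the authors' deposited table. Of the 1577 genes in that table, 43 met this rule, with 27 channel genes and 16 receptor genes on 16 chromosomes. The medium of all samples held serum, and for 24 h cells received either no inhibitor (NT, 2 samples) or 5 μM Go6983, an inhibitor of protein kinase C (PKC, 2 samples). Whether the cytokine LIF was present is not stated for these samples. The study speaks of replicates without saying for these libraries whether they came from separate cultures, so the p-values measure the spread between these samples, part of which may be technical. Each value is a read count divided by a size factor of its library, called a normalized count, which the authors deposited as log2(normalized count + 1).

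Ion channels set the voltage across the cell membrane. Sodium and calcium channels let positive charge in, potassium channels let it out and return the membrane to rest, and accessory subunits set where and how fast the pores work. Ionotropic receptors are channels opened by a transmitter, while metabotropic receptors act through G proteins, some of which open inward rectifier potassium channels. In embryonic stem cells, which do not fire action potentials, most of these genes are held at low levels, and they are best known from neurons, muscle, retina and secretory cells.

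The 43 genes were more often higher than lower in Go6983-treated cells. At a limma adjusted p below 0.05, 32 were higher and 10 were lower, and *Kcnh8* was lower without passing. Of all 1577 listed genes, 68.8% were called higher and 29.7% lower, so the 74.4% and 23.3% of the channel and receptor genes lay near the table as a whole. Counts within a class, given below, rest on few genes and are to be read beside these shares. The table had been filtered by the authors for genes that differed in this same contrast. All 1577 listed genes differed by at least 2-fold here, the smallest log2 change being 1.00 in size, so calls, fold changes and gaps between groups describe genes chosen for them and test nothing. The median log2 fold change was 1.43 for the 43 genes and 1.21 for all listed genes. The values of the groups did not overlap for any of the 43 genes, as was so for 99.7% of the table. Each sample was then left out in turn. Such a fit has 1 sample in a group, which is assumed to vary like the other group, and it has fewer degrees of freedom. Calls over the whole table fell too, and a larger part was lost among the 43 genes when a Go6983 sample was left out. A call lost without a sample, as given below, therefore does not say that the change was smaller, and the range of the log2 change over these 4 fits is given for that. In each of these fits fewer of the 43 genes were called than with all samples. The change moved by over 1.5 times in some fit for 5 of the 43 genes (11.6%), *Grik1*, *Htr5a*, *Htr1b*, *Kcnc4* and *Gabra3*, as it did for 12.6% of all listed genes. *Grin1*, *Grm4*, *Grm6*, *Chrna5*, *Kcnj3*, *Cacna2d2*, *Cacng5* and *Cacng8*, 8 genes with reads in both groups, were called in each of these 4 fits. *Gabrr2* was too, but with 0 reads in both NT samples these have no spread, and its passing says nothing of stability. How many of all listed genes kept a call in every one of these fits is not given here. The 8 genes are therefore not shown to be unusual within the table. No gene changed direction in these fits or under another scaling of the libraries.

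The genes of the rule were listed at different rates from class to class. Of 234 such protein-coding genes in GENCODE M21, 18.4% were in the table, against 5.47% of all 21951 protein-coding genes, a share that has no test here. Among metabotropic glutamate receptor genes 3 of 8 were listed, among inward rectifiers 5 of 15 and among ionotropic glutamate receptor genes 6 of 19. The 14 tandem-pore potassium channel genes (*Kcnk*), the 4 AMPA receptor genes, the 4 calcium channel beta subunit genes, the 5 muscarinic, 5 glycine and 5 dopamine receptor genes and the 9 adrenergic receptor genes had no entry and were not analysed here.

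Marker genes of the labelled cell type and of other cell types were looked up. The table holds only genes that differed between the groups, so a marker without an entry may be expressed and unchanged. The entries therefore do not tell which cell types were present. Of 10 mESC markers 4 were listed, and *Tfcp2l1*, *Nanog* and *Klf4* were higher and *Utf1* lower with Go6983, with a summed level of 55513 and 55944 normalized counts in NT against 88977 and 92466 with Go6983. The defining genes *Pou5f1* and *Sox2* had no entry. None of 12 neuron markers was listed, and of 10 neural progenitor markers *Neurod1* and *Pax6* were listed, both lower, with a summed level between 1328 and 1538 normalized counts in the NT samples and between 349 and 432 in the Go6983 samples. Of 9 muscle markers *Myl7* was listed, higher, of 5 trophoblast markers *Tfap2c*, higher, and of 5 primitive endoderm markers none. In a bulk sample fewer cells of a type and less RNA per cell cannot be told apart, and the part of other cell types in the values below was not tested.

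**Figure D1:**
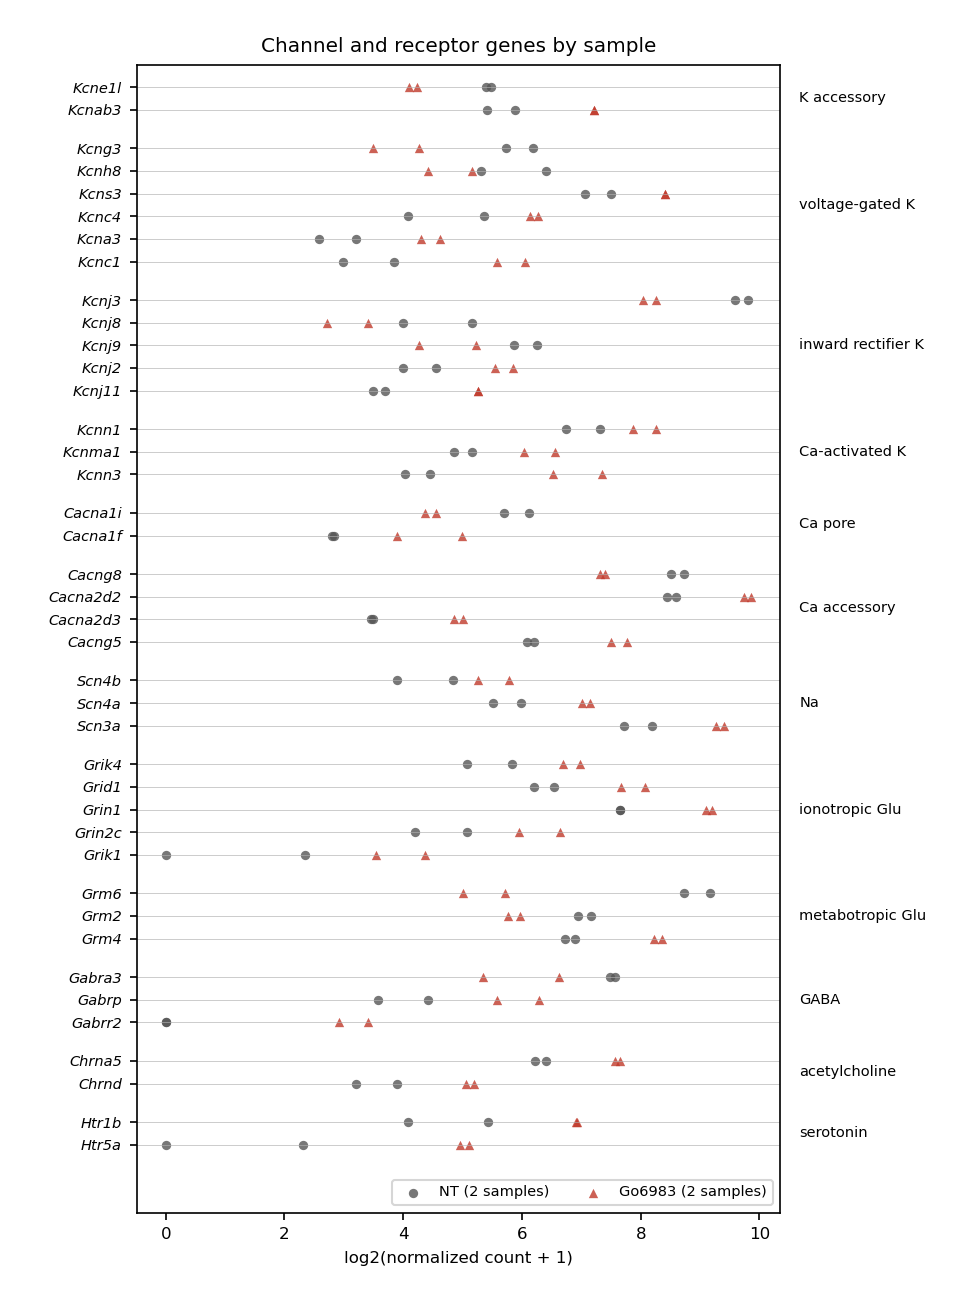
Expression of 40 of the 43 genes as log2(normalized count + 1), grouped by class, with each grey circle an NT sample and each red triangle a Go6983 sample (2 samples each). The pair of Go6983 samples lies wholly to the right of the NT samples for 29 genes and wholly to the left for 11, *Kcnh8* included. The groups are likewise apart for 99.7% of all listed genes.

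The promoters of these genes differed widely in sequence. RefSeq promoter windows on GRCm38.p6, which run from 250 bases before a RefSeq start to 50 bases after it, were found for 33 of the 43 genes. A RefSeq start can differ from the gene start in GENCODE M21. Some windows lie inside the GENCODE gene, among them those of *Kcnma1*, *Scn4a* and *Cacng8*, and all were kept in the counts below. They held between 0 and 49 CpG dinucleotides, the sites at which vertebrate DNA is methylated, with a median of 14, against a median of 7 over the 27025 genes with a window and 12 over the listed genes. The 22 higher genes with a window had a range of 2 to 43 CpG and the 11 lower genes one of 0 to 49, with medians of 17 and 10, a difference that was not tested. The 250 bases before the start are shown for *Grin1* and *Kcng3*, which are rich in CpG and moved in opposite directions, and for *Chrna5* and *Grm6*, which are poor in CpG and also moved in opposite directions. Capitals mark CpG, and each sequence runs 5′ to 3′ on the strand of its gene.
*Grin1*, higher with Go6983, minus strand, chr2:25319188-25319437, 27 CpG: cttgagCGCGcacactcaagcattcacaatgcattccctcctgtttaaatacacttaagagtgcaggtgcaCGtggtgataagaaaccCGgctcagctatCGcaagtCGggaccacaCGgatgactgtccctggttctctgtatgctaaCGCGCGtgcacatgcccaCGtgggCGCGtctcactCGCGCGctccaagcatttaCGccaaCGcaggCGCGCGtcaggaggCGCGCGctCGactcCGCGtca
*Kcng3*, lower with Go6983, minus strand, chr17:83631896-83632145, 41 CpG: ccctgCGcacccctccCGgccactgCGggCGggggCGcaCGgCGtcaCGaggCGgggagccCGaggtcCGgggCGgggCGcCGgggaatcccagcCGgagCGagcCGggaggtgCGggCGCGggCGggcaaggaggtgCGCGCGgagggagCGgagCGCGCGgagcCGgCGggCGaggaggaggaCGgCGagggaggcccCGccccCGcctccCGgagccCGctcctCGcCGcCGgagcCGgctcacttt
*Chrna5*, higher with Go6983, plus strand, chr9:54980630-54980879, 3 CpG: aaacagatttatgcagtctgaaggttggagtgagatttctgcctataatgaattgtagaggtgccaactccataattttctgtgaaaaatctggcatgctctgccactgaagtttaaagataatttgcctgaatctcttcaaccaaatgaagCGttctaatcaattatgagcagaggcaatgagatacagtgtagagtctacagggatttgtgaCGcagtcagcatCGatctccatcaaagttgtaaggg
*Grm6*, lower with Go6983, plus strand, chr11:50850435-50850684, 4 CpG: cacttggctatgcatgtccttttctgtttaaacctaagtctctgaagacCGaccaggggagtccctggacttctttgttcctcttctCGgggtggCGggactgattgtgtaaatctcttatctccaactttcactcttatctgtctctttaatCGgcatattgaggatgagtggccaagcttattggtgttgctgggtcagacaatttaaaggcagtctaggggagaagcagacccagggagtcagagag

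Short motifs were searched on both strands of the same windows, and their shares are given for the 33 genes, for the windows of the listed genes and for all windows. The GC box (GGGCGG) was in 54.5% of the 33, against 48.8% of the listed genes and 35.9% of all. The core of the xenobiotic response element (GCGTG) was in 42.4%, against 37.3% and 32.5%, and the CCAAT box (CCAAT) in 36.4%, against 36.0% and 37.9%. A TATA box (TATAAA) was in 2 windows, those of *Gabra3* and *Kcnj9*, and in 11.4% of the listed genes and 14.2% of all. An E-box (CACGTG) was in 2 windows, those of *Grin1* and *Kcnj2*, and in 7.2% and 7.24%. The cyclic AMP response core (TGACGT) was in 0 of the 33, and in 6.7% and 7.64%. The AP-1 site (TGACTCA), the element through which phorbol esters act on genes, was in the window of *Cacng5*, and in 6.0% and 5.17%. The left arm of the element bound by the neuronal repressor REST (TTCAGCACC) was in 1 window, that of *Grm2*, and in 0.6% of the listed genes and 0.359% of all. In *Grm2* the letters GGACAG of its right arm followed after 7 bases, an order found with a gap of up to 20 bases in 0.0407% of all windows. The gap in *Grm2* was not compared with that of known REST elements, and binding was not tested. *Grm2* was looked at for this after the match was seen, and the stretch is shown with both arms in capitals.
*Grm2*, lower with Go6983, minus strand, chr9:106656323-106656359: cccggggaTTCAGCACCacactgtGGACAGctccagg

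**Figure D2:**
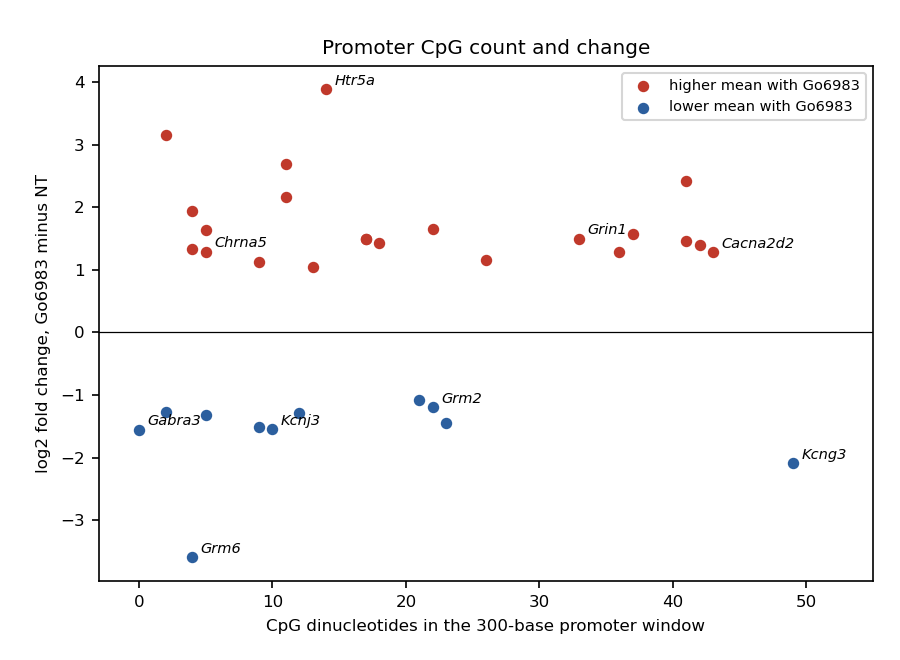
Number of CpG dinucleotides in the 300-base promoter window (horizontal axis) and log2 fold change between Go6983 and NT (vertical axis) for the 33 genes with a window, red for genes with a higher and blue for genes with a lower mean in Go6983-treated cells. *Grin1* with 33 CpG and *Chrna5* with 5 are both higher, and *Kcng3* with 49 and *Grm6* with 4 are both lower.

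The ionotropic glutamate receptor genes, which encode cation channels opened by glutamate, were higher with Go6983 in all 6 listed members. Of all listed genes, 68.8% were called higher. *Grin1* (ENSMUSG00000026959, chromosome 2 of GRCm38 from 25291181 to 25319187, minus strand), the obligate subunit of NMDA receptors, had 199.9 and 200.3 normalized counts in NT and 549.8 and 589 with Go6983. The NT samples were almost level and far below both Go6983 samples, and the log2 fold change was 1.50 (standard error, SE, of 0.13, limma adjusted p = 0.000428). *Grin1os*, annotated on the opposite strand, covers 13.5% of the exonic bases of *Grin1*, and reads from the pair cannot be told apart without strand. *Grin2c*, an NMDA receptor subunit best known from cerebellar granule cells, had 32.8 and 17.4 normalized counts in NT and 60.7 and 98.5 in Go6983-treated cells. The delta receptor gene *Grid1*, whose product acts as a synaptic organizer, had 92.5 and 72.5 normalized counts in NT and 203 and 268 with Go6983. In both genes the groups were apart, as in 99.7% of the table, with a wide gap between the Go6983 samples. *Grik4*, a kainate receptor subunit of high affinity, had 55.7 and 32.7 normalized counts in NT and 125 and 103 with Go6983. *Grik1*, another kainate receptor gene, was close to the limit of detection in NT, at 0 and 4.09 normalized counts, and reached 19.6 and 10.7 with Go6983. With a sample left out, the log2 change of *Grin2c* lay between 1.21 and 2.09, that of *Grid1* between 1.30 and 1.70, that of *Grik4* between 1.01 and 1.76 and that of *Grik1* between 1.61 and 3.96. The calls of these 4 genes were lost in some of these fits (limma adjusted p up to 0.177, 0.0593, 0.141 and 0.215), and *Grin1* kept its call, with a log2 change between 1.45 and 1.55.

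Metabotropic glutamate receptors moved in both directions. *Grm6* (ENSMUSG00000000617, chromosome 11 of GRCm38 from 50850685 to 50866208, plus strand), the receptor by which ON bipolar cells of the retina sense glutamate, showed the largest fall of the 43 genes. It had 575 and 423 normalized counts in NT and 51.3 and 31.0 with Go6983, so that its mean was 12.1-fold lower, and the log2 fold change was -3.59 (SE 0.30, limma adjusted p = 0.000428). *Gm12660*, an antisense gene, covers 11.1% of the exonic bases of *Grm6*. *Grm2*, which dampens transmitter release through inhibitory G proteins, fell from 122 and 143 normalized counts in NT to 61.6 and 53.5 with Go6983. *Grm4*, which belongs to the same subgroup as *Grm6* and acts before the synapse, rose from 117 and 104 to 298 and 329 normalized counts. The samples of each group were close together for *Grm2* and *Grm4*, and the log2 fold changes were -1.19 (SE 0.22) and 1.49 (SE 0.16). The limma adjusted p of *Grm2* was 0.00439, and 0.0597 without Go6983 replicate 2, where its log2 change was -1.09.

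Of the GABA receptor genes, which encode chloride channels, 2 were higher and 1 lower. *Gabra3*, an alpha subunit of the receptors of the developing brain, had 188 and 178.8 normalized counts in NT and 97.1 and 39.6 in Go6983-treated cells. Both Go6983 samples were lower, by unequal amounts, and the log2 change of -1.55 became -2.18 without Go6983 replicate 1 and -0.91 without Go6983 replicate 2. Its call held in those fits and was lost without NT replicate 1 or NT replicate 2 (limma adjusted p = 0.135 and 0.125), where the change was -1.51 and -1.58 and the spread came from the uneven Go6983 samples. *Gabrp*, a subunit found mainly outside the nervous system, had 10.9 and 20.4 normalized counts in NT and 77.5 and 47.1 with Go6983, and its log2 change lay between 1.52 and 2.36 with a sample left out (limma adjusted p up to 0.127). *Gabrr2*, a subunit of the retinal rho receptors, was at 0 in both NT samples and at 6.53 and 9.63 normalized counts in the Go6983 samples. Taking 3 reads as the floor in each NT library, its mean was at least 2.67-fold higher, and its fitted change depends on the pseudocount.

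The nicotinic acetylcholine receptor and serotonin receptor genes in the table were all higher, where 68.8% of all listed genes were called higher. *Chrna5*, an accessory subunit of neuronal nicotinic receptors, had 73.6 and 83.8 normalized counts in NT and 199.8 and 188 in Go6983-treated cells, 1.29 higher on the log2 scale (SE 0.18, limma adjusted p = 0.00158). The spread within each group was small beside the gap between the groups. *Chrnd*, the delta subunit of the receptor at the neuromuscular junction, was at 13.9 and 8.17 normalized counts in NT and 35.5 and 32.1 with Go6983. *Htr1b*, a serotonin receptor coupled to inhibitory G proteins, had 15.9 and 41.9 normalized counts in NT and 121 and 119.9 with Go6983, level in the treated samples and uneven in NT. An antisense gene, *D430036J16Rik*, covers 18.0% of the exonic bases of *Htr1b*. *Htr5a*, another serotonin receptor gene, had 4 reads in NT replicate 1, 0 in NT replicate 2 and 36 and 28 reads in the Go6983 samples, and no fold is given for it. With a sample left out, the log2 change of *Htr1b* lay between 1.50 and 2.85, moving with the NT samples, and that of *Chrnd* between 1.22 and 1.92. The calls of *Htr1b*, *Htr5a* and *Chrnd* were lost in some of these fits (limma adjusted p up to 0.132, 0.111 and 0.105).

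**Figure D3:**
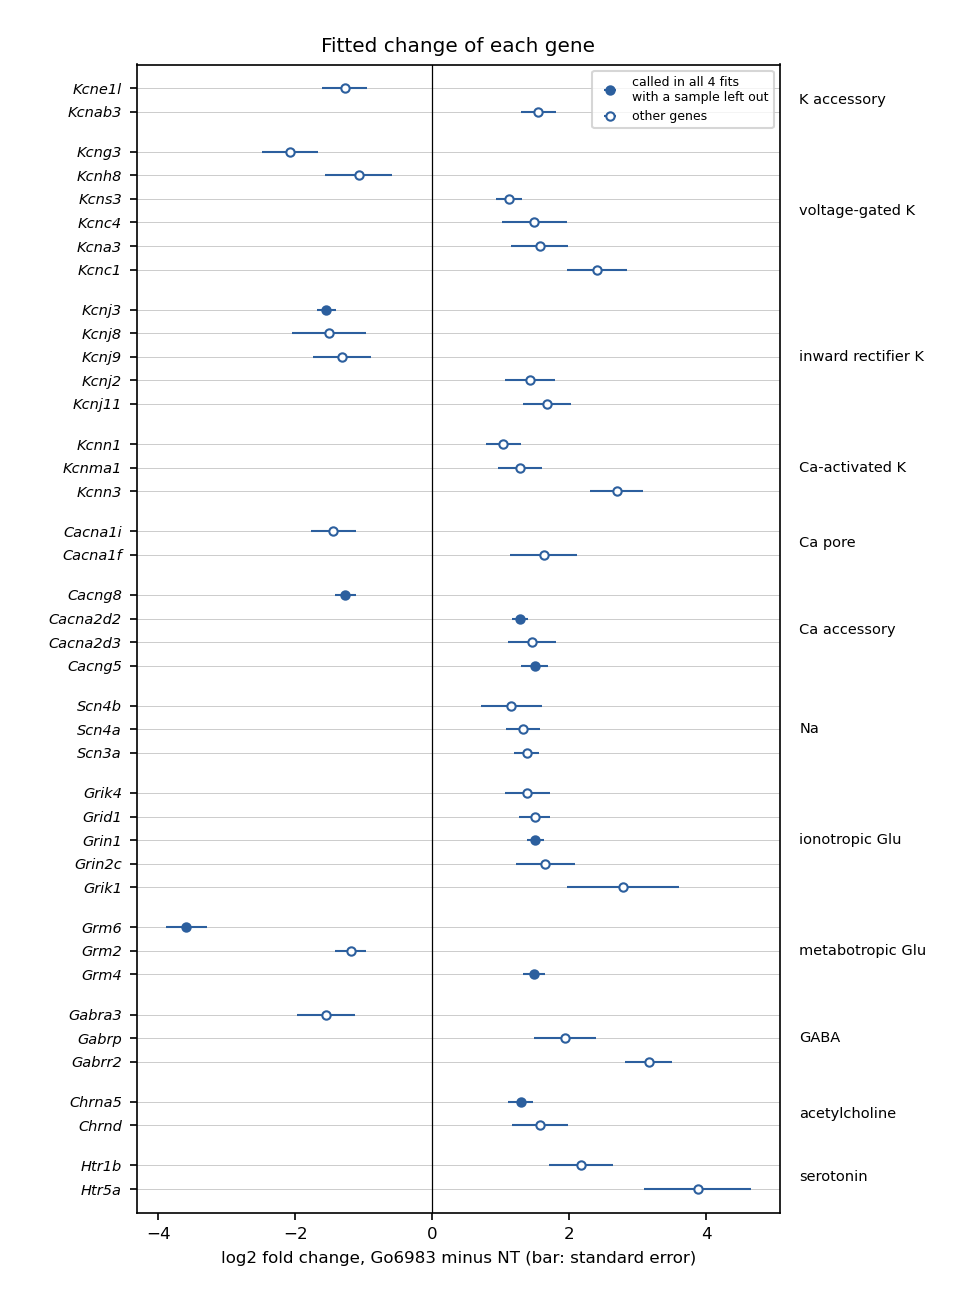
Log2 fold change of 40 of the 43 genes between Go6983 and NT, grouped by class, on the log2(normalized count + 1) scale, with bars of 1 SE from limma. Filled circles mark the 8 genes with reads in both groups that were called in all 4 fits with a sample left out. The 5 ionotropic glutamate receptor genes shown lie to the right of 0, and the inward rectifier and metabotropic glutamate receptor genes lie on both sides. *Gabrr2* is at 0 in NT, so its place depends on the pseudocount.

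Voltage-gated potassium channels, which bring the membrane back to rest after a depolarization, formed the largest class, with 8 genes of which 6 were called higher and 1 lower. *Kcnc1* and *Kcnc4* encode channels that close quickly and serve fast firing. *Kcnc1* had 6.96 and 13.3 normalized counts in NT and 65.3 and 47.1 with Go6983, a mean 5.55-fold higher. *Kcnc4* had 15.9 and 39.9 in NT and 76.5 and 69.6 with Go6983, while *Kcna3*, a channel known from T cells, stayed below 24 normalized counts in every sample.

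The modifier subunits of this class, which do not form channels on their own and act in complex with Kv2 channels, moved apart. *Kcns3* had 132 and 179.8 normalized counts in NT and 337 and 339 in Go6983-treated cells, and *Kcng3* had 71.6 and 52.1 in NT and 10.3 and 18.2 with Go6983. The log2 fold change was 1.13 (SE 0.19) for *Kcns3* and -2.08 (SE 0.41) for *Kcng3*, with limma adjusted p-values of 0.00297 and 0.00542. *Kcnh8*, of the Elk channels, had 83.5 and 38.8 normalized counts in NT and 34.5 and 20.3 with Go6983, with the lower NT sample just above the higher Go6983 sample, and a limma adjusted p of 0.0722, or 0.0463 when the libraries were scaled to the total of the listed genes. The 7 calls of voltage-gated potassium channels were all lost without Go6983 replicate 1, and all lost without Go6983 replicate 2 (limma adjusted p from 0.0546 to 0.220). With a sample left out, the log2 change stayed between 0.91 and 1.35 for *Kcns3* and between -2.46 and -1.69 for *Kcng3*. It stayed between 1.98 and 2.83 for *Kcnc1* and moved most for *Kcnc4*, between 0.86 and 2.13. That of *Kcnh8* lay between -1.62 and -0.53, and was -0.53 without NT replicate 1, its higher NT sample.

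Inward rectifiers, which hold the resting potential, divided into 3 lower and 2 higher genes. *Kcnj3* (ENSMUSG00000026824, chromosome 2 of GRCm38 from 55435970 to 55598145, plus strand), which encodes GIRK1, a channel opened by G protein beta-gamma subunits, had 893 and 768 normalized counts in NT and 306 and 262 with Go6983. Both Go6983 samples were far below both NT samples, with a log2 change of -1.54 (SE 0.14, limma adjusted p = 0.000478). A lincRNA gene on the other strand, *Gm26794*, covers 31.1% of the exonic bases of *Kcnj3*. *Kcnj9*, which encodes another GIRK subunit, was lower as well, with 75.6 and 57.2 normalized counts in NT and 36.4 and 18.2 with Go6983. The genes of the pore subunits of ATP-sensitive potassium channels moved apart, with *Kcnj8* at 14.9 and 34.7 normalized counts in NT and 5.60 and 9.63 with Go6983, and *Kcnj11* at 11.9 and 10.2 in NT and 37.3 and 37.5 with Go6983. *Kcnj2*, a strong rectifier of muscle and brain, had 14.9 and 22.5 normalized counts in NT and 45.7 and 56.7 with Go6983. With a sample left out, the log2 change of *Kcnj3* stayed between -1.66 and -1.43 and that of *Kcnj11* between 1.57 and 1.77, while those of *Kcnj2*, *Kcnj9* and *Kcnj8* lay between 1.15 and 1.71, -1.80 and -0.84, and -2.09 and -0.93. *Kcnj9* lost its call whichever of the 4 samples was left out (limma adjusted p from 0.0684 to 0.177), and *Kcnj11*, *Kcnj2* and *Kcnj8* lost theirs in some of these fits (up to 0.059, 0.135 and 0.250), *Kcnj8* also with a pseudocount of 0.1 (0.0503).

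The 3 calcium-activated potassium channel genes, whose products couple calcium entry to repolarization, were all higher, beside 68.8% of all listed genes called higher. *Kcnn3*, a small-conductance channel, went from 20.9 and 15.3 normalized counts in NT to 161 and 91.0 with Go6983, a mean 6.97-fold higher. *Kcnn1*, of the same family, had 106 and 157 normalized counts in NT and 233 and 306 with Go6983. *Kcnma1*, the large-conductance BK channel, had 27.8 and 34.7 in NT and 93.4 and 64.2 with Go6983. The groups were apart in all 3 genes, as in 99.7% of the table, and the Go6983 samples of *Kcnn3* were farther from each other than the NT samples. *Kcnn3* differed by 2.69 on the log2 scale (SE 0.38), and its limma adjusted p of 0.00158 became 0.0569 without Go6983 replicate 1. With a sample left out, the log2 change of *Kcnn3* lay between 2.28 and 3.10, that of *Kcnn1* between 0.76 and 1.32 and that of *Kcnma1* between 1.02 and 1.56, with limma adjusted p-values of up to 0.141 for *Kcnn1* and 0.132 for *Kcnma1*. Of the accessory potassium channel subunits, *Kcnab3*, a cytoplasmic beta subunit, had 41.8 and 58.2 normalized counts in NT and 146.6 in each Go6983 sample, and *Kcne1l* was lower, between 40.9 and 43.8 in NT and between 16.1 and 17.7 with Go6983. The log2 change of *Kcnab3* was 1.55 with all samples and without either of its Go6983 samples, though its call was then lost (limma adjusted p = 0.0692 and 0.0717). That of *Kcne1l* stayed between -1.34 and -1.21 with a sample left out, and its call was lost in each fit (from 0.0519 to 0.105).

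Among calcium channel genes the accessory subunits had the highest counts. *Cacna2d2* (ENSMUSG00000010066, chromosome 9 of GRCm38 from 107399612 to 107529343, plus strand), an alpha2delta subunit that brings the pore to the cell surface, rose from 384 and 346 normalized counts in NT to 924 and 855 with Go6983. Its samples were tight in each group, with a log2 change of 1.28 (SE 0.12, limma adjusted p = 0.000479). *Cacng5* and *Cacng8*, named as gamma subunits, are known chiefly as partners of AMPA receptors, and they moved in opposite directions. *Cacng5* had 66.6 and 72.5 normalized counts in NT and 180.2 and 218 with Go6983, and *Cacng8* had 425 and 363 in NT and 158 and 167 with Go6983. The log2 fold changes were 1.50 (SE 0.20) and -1.27 (SE 0.15), with limma adjusted p-values of 0.00124 and 0.000854. *Cacna1i*, the pore of a low-voltage T-type channel, was lower, at 50.7 and 68.5 normalized counts in NT and 19.6 and 22.5 with Go6983. *Cacna1f*, the L-type pore of photoreceptors, and *Cacna2d3* were higher, with *Cacna1f* at 5.97 and 6.13 normalized counts in NT and 30.8 and 13.9 with Go6983, and *Cacna2d3* at 9.95 and 10.2 in NT and 28.0 and 31.0 with Go6983. With a sample left out, the log2 change of *Cacna2d2* stayed between 1.21 and 1.36, that of *Cacna2d3* between 1.39 and 1.53 and that of *Cacna1i* between -1.66 and -1.23, and that of *Cacna1f* lay between 1.08 and 2.17. The calls of *Cacna1i*, *Cacna2d3* and *Cacna1f* were lost in some of these fits (limma adjusted p up to 0.0987, 0.0577 and 0.107).

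All 3 listed sodium channel genes were higher with Go6983, beside 68.8% of all listed genes called higher. *Scn3a*, the channel of the embryonic brain, had 290 and 210.5 normalized counts in NT and 614 and 679 with Go6983, 1.38 higher on the log2 scale (SE 0.19, limma adjusted p = 0.00127). *Scn4a*, the channel of skeletal muscle, had 44.8 and 62.3 normalized counts in NT and 127.9 and 140.2 with Go6983. For both genes the Go6983 samples were more than 2-fold above the mean of the NT samples. *Scn4b*, an accessory beta subunit, was low, at 13.9 and 27.6 normalized counts in NT and 54.1 and 37.5 with Go6983. The calls of *Scn3a* and *Scn4a* were lost without either Go6983 sample (limma adjusted p from 0.0527 to 0.0911), and their log2 changes stayed between 1.15 and 1.61 and between 1.09 and 1.56 with a sample left out. The call of *Scn4b* was lost whichever of the 4 samples was left out (from 0.0529 to 0.2995) and under both other scalings of the libraries (0.0638 and 0.0712).

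Levels between genes were compared per kilobase of exons in GENCODE M21. In NT cells the order was led by *Cacng8* at 168 normalized counts per kb, *Kcnj3* at 159 and *Grm6* at 92.0, and these 3 genes were all lower with Go6983, at 69.2, 54.5 and 7.60 per kb. In Go6983-treated cells the order was led by *Cacna2d2* at 112 normalized counts per kb and *Kcns3* at 107, followed by *Cacng8* at 69.2. *Cacna2d2* and *Kcns3* lay close together, and their order was not tested. Summed over genes, the 32 higher genes had 2173 and 2050 normalized counts in NT and 5664 and 5654 with Go6983, and the 11 lower genes had 2543 and 2168 against 798 and 658. The genes were split here by the direction of their own change. In all, 4742, 4128, 6922 and 5897 reads stood behind the values of NT replicates 1 and 2 and Go6983 replicates 1 and 2. The 12 genes with a mean below 50 normalized counts in both groups, *Htr5a*, *Grik1* and *Gabrr2* among them, had between 0 and 43.8 in the NT samples and between 5.60 and 54.1 in the Go6983 samples.

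**Figure D4:**
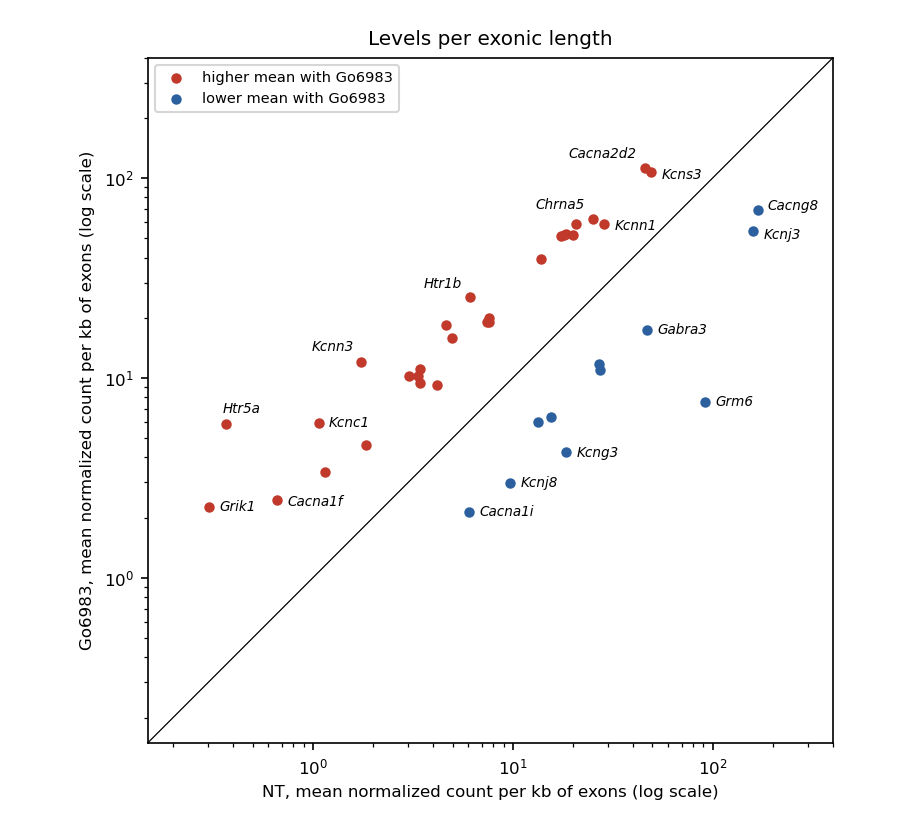
Mean normalized count per kb of exons in NT (horizontal axis) and in Go6983-treated cells (vertical axis), both on log scales, for 39 of the 43 genes, red where the mean was higher with Go6983 and blue where it was lower. The line marks equal levels. *Gabrr2*, at 0 in NT, cannot be placed. *Cacng8*, *Kcnj3* and *Grm6* lead in NT and lie below the line, and *Cacna2d2* and *Kcns3* lead with Go6983.

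Genes that act beside channels and receptors were counted by list. The counts of each list, here and in the next paragraphs, rest on few genes. They stand beside 68.8% of all listed genes called higher and 29.7% called lower, and 5.47% of all protein-coding genes listed. Of 38 partner proteins of channels and receptors 5 were listed, with 4 lower and 1 higher. *Shisa6*, an AMPA receptor partner, fell from 442 ± 27.2 normalized counts to 96.4 ± 18.2 (SD over 2 samples), *Neto2*, a kainate receptor partner, fell from 409 ± 10.7 to 184 ± 49.9, and *Ank1*, an ankyrin, rose from 19.2 ± 8.92 to 85.0 ± 3.98. The call of *Shisa6* held with each sample left out, and the highest limma adjusted p was 0.0539 for *Neto2* and 0.101 for *Ank1*. *Neto2* was lower and its kainate receptor partners *Grik1* and *Grik4* were higher, with *Grik1* close to the limit of detection in NT. All listed genes were chosen for a change in this contrast, and a link between these genes was not tested. Of 84 other cation and anion channel genes 10 were listed, with 8 higher, 1 lower and *Cftr* not passing. *Trpm1*, the channel that *Grm6* signaling closes in ON bipolar cells, rose from 287 ± 10.9 to 1555 ± 311 normalized counts, with a log2 change of 2.42 (SE 0.16, limma adjusted p = 0.000387), where *Grm6* fell. *P2rx3*, an ATP-gated channel, rose from 43.2 ± 10.6 to 140.4 ± 5.81 and *Piezo2*, a mechanosensitive channel, from 113 ± 17.1 to 226 ± 11.3, and the call of each was lost with a sample left out (limma adjusted p up to 0.0724 and 0.0717). *Trpm6*, *Asic2* and *Scnn1a* were also called higher, at means of 64.9 to 83.7 normalized counts with Go6983, and none held with each sample left out (highest limma adjusted p from 0.164 to 0.323).

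Genes of transmitter synthesis and transport were listed for 4 of 35, with 3 lower and 1 higher, where 68.8% of all listed genes were called higher and 29.7% lower. *Slc1a1*, a glutamate transporter, rose from 134 ± 3.14 normalized counts to 306 ± 4.21 (SD over 2 samples), and *Th*, the rate-limiting enzyme of catecholamine synthesis, and *Slc6a5*, a glycine transporter, fell from 66.6 ± 2.70 to 27.5 ± 1.95 and from 74.7 ± 5.71 to 30.7 ± 14.7. The call of *Slc1a1* held with each sample left out, and those of *Th* and *Slc6a5* did not (highest limma adjusted p = 0.084 and 0.144). Of 48 genes of synaptic scaffolds and release 9 were listed, with 7 higher and 2 lower. *Pclo*, a giant scaffold of the active zone, rose from 114 ± 21.3 to 294 ± 24.9 normalized counts, and *Sv2c*, a synaptic vesicle protein, from 88.0 ± 16.1 to 194 ± 25.7, while *Syt4*, a synaptotagmin, fell from 182 ± 11.3 to 80.7 ± 21.8. *Cplx2*, *Syn3*, *Nlgn3* and *Syt2*, which serve vesicle release or adhesion at the synapse, were called higher at means of 58.4 to 151 normalized counts with Go6983. Each of these 7 calls was lost with a sample left out (highest limma adjusted p from 0.0586 to 0.206). Of 46 other transmitter and peptide receptor genes 4 were listed, all higher, with the kappa opioid receptor gene *Oprk1* at 89.6 ± 27.7 normalized counts with Go6983 (highest limma adjusted p 0.171 with a sample left out). Of 42 genes of calcium stores and ion pumps 6 were listed, 5 higher and 1 lower, with the sodium-calcium exchanger gene *Slc8a3* going from 34.8 ± 4.23 to 105 ± 13.7 (0.0757). The median log2 fold change of these lists was -1.61 for the partners, 1.24 for the other channels, -1.29 for synthesis and transport, 1.28 for scaffolds and release, 1.55 for the other receptors and 1.36 for stores and pumps, beside 1.21 for all listed genes.

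Of the 9 PKC genes, whose products Go6983 inhibits, 2 were listed. *Prkch* fell from 235 and 234 normalized counts in NT to 106 and 80.3 with Go6983, and *Prkcq* was low, at 10.9 and 6.13 in NT and 25.2 and 28.9 with Go6983. The limma adjusted p was 0.00202 for *Prkch* and at most 0.0329 with a sample left out, and 0.0133 for *Prkcq*, with up to 0.104 when a sample was left out. None of the 10 genes of REST and its corepressors had a value in the table used here.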

How the data were processed

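Total RNA of 4 samples of 46C mESCs was sequenced. The submitters' notes on processing give Bowtie 0.12.2 and mm9 as the genome. The sources used here do not give the counter, annotation, strand or normalization tool, nor the test with which the authors chose the genes of their table. The deposited values were read as log2(normalized count + 1), an inference from their steps. With the log2 and the added 1 undone, 100% of the values of each sample were within 0.05 of a whole multiple of 1 step, and the reads so recovered numbered 859777 to 1054236 per sample over the listed genes, with the total depth unknown. Samples of a group were not copies of each other (chi-square per gene 9.76 in NT and 7.33 in Go6983). The authors' table also holds 5 columns of group means and of their own comparison (log2 fold change, p-value and adjusted p-value), which were not used.

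Symbols, exon lengths and coordinates came from GENCODE M21 (GRCm38), in which 1572 of the 1577 IDs were found, and were not set beside mm9 coordinates. The main test was limma 3.58.1 (R 4.3.3), run with lmFit and a trended eBayes over all 1577 genes without filter or replicate block. Benjamini-Hochberg adjustment covered the same genes, and calls needed an adjusted p below 0.05. On this scale the changes of genes with few reads are understated. An exact permutation test of 2 against 2 samples cannot go below p = 0.333 (two-sided), so none is given. Before use the fit was run on simulated counts in which most genes were unchanged. The listed genes were all selected for a change, so that run does not show how the fit behaves on them.

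The members, classes and gene lists were chosen with earlier results of these data known. Of the 43 members, 3 are counted in the totals and not reported here by name or in figures, as are 2 genes of the lists. The other members are named, those whose mean reached 50 normalized counts in NT or Go6983 with their value in each sample. List genes are named where called and at least at this mean, other than markers and genes named for a role in the text. Where a gene had more than 1 RefSeq promoter window the first was used, 10 members had none, and motifs were chosen after the fits were seen. Alternatives were pseudocounts of 0.1 and 5, filters at 10 and 50 normalized counts, reads with no size factor or scaled to the total of the listed genes, limma without trend, limma-voom on the recovered reads, the replicate block, each sample left out and other call rules. Figures were drawn with matplotlib 3.10.9.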

Additional observations from a re-analysis of the deposited data

How the results depend on the processing

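With 1 sample left out, between 8 and 27 of the 43 genes were called higher and between 4 and 6 lower, against 32 and 10 with all samples. The same fits called between 431 and 858 of all 1577 listed genes higher and between 260 and 315 lower, since each leaves 1 sample in a group. At an adjusted p below 0.05 and at least 4-fold, 6 were higher and 2 lower. Under the other alternatives the counts stayed between 22 and 32 higher and between 8 and 11 lower, with the lowest of each at the filter of 50 normalized counts, which tests fewer genes.

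With the replicate block 31 genes were higher and 11 lower, *Kcnh8* gaining a call (limma adjusted p = 0.027) and *Scn4b* losing one (0.0744). *Scn4b* also lost it with no size factor (0.0638), with the other scaling (0.0712) and in limma without trend (0.0507). The replicate numbers share only a number, with a correlation of 0.032 between the deviations of same-numbered samples over the listed genes. *Grik1*, *Kcnj8* and *Scn4b* lost their calls at a pseudocount of 0.1 (0.0622, 0.0503 and 0.0591), and the cause was not tested. Scaling to the total of the listed genes shifted all listed genes by a median log2 of -0.13 and took the counts to 31 higher and 11 lower, *Kcnh8* gaining a call there too (0.0463). limma-voom on the recovered reads called 32 higher and 10 lower. Of 546 fold changes of single genes refitted under an alternative, 455 kept their side of the threshold, 89 lost it, 2 gained it and none changed sign.

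Depth limits the genes near 0 in NT, *Gabrr2*, *Htr5a* and *Grik1*, for which the size of the change depends on the pseudocount. The p-values are not corrected for the selection of all listed genes on these same samples.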
